A study of Mus musculus with 14 samples.

Results

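Cathepsins are the proteases of the lysosome, and 10 of their genes (Ctsa, Ctsb, Ctsc, Ctsd, Ctsf, Ctsh, Ctsk, Ctsl, Ctss and Ctsz) are described here in corpus callosum of the mouse and in oligodendrocyte cultures. Libraries labelled Qk-KO, for deletion of Qk, are compared with libraries labelled WT. The genes were chosen by symbol, and all 10 were found among the 46983 genes of each deposited table. Qk encodes quaking, an RNA-binding protein of myelinating glia. Callosum RNA came from FvB/C57BL6 hybrid mice that carried Plp-CreERT2, a tamoxifen-inducible Cre recombinase that is active in oligodendrocyte lineage cells. The 4 libraries labelled Qk-KO came from mice with both Qk copies floxed (QKLoxP/LoxP) and the 4 labelled WT from mice with 1 floxed copy (QKLoxP/+), so that the floxed allele, the Cre and the drug were present in the controls too. The callosum contrast is therefore of both copies floxed against 1, and deletion of that 1 copy in the controls was not checked. Tamoxifen was given at 8 weeks of age and tissue was taken 4 days later. The culture libraries, 3 per genotype, came from neural stem cells of the same hybrid background at passages 7, 12 and 13, which were differentiated in medium with IGF-1 at 100 ng/ml and the thyroid hormone T3 at 50 ng/ml. All cultures labelled Qk-KO carry 40HT in their description and all labelled WT carry EtOH, so agent and genotype cannot be told apart there.

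Most cathepsins are papain-like cysteine proteases, whereas the product of Ctsd is an aspartic protease and that of Ctsa a serine carboxypeptidase. They are made as inactive precursors, sorted to the lysosome by mannose 6-phosphate receptors and sortilin, and matured by cleavage. Those of the cysteine class are held in check by cystatins. In the brain, microglia and border macrophages are rich in cathepsins, Ctss being largely a gene of myeloid cells, while Ctsd, Ctsb and Ctsl are used by all cell types to turn over protein.

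The library columns hold fitted means of a model with genotype as its only term, without the spread between replicates, so changes and standard errors (SE) are those of the authors' deposited tables. Levels are given as fitted CPM (fitted counts scaled to the library total, in the usual CPM unit), which are equal in all libraries of a genotype. Fitted totals ranged from 15048646 to 27666519 counts in callosum and from 38325833 to 48912999 in culture. Tests of the deposited tables are Wald tests, two-sided, with Benjamini-Hochberg adjustment over all tested genes and a threshold of 0.05 on the adjusted p. The labels do not say whether the cultures came from separate animals, so those p-values may measure technical spread only. For Qk itself the log2 change was 0.32 ± 0.12 in the tissue (adjusted p = 0.162) and 0.66 ± 0.14 in culture (adjusted p = 4.19e-05), in the authors' deposited tables. These counts cover the whole gene and do not check the deletion. The callosum libraries held oligodendrocyte RNA (Mbp at 2925 CPM in WT) and neuronal RNA (Map2 at 1791 CPM in WT). Cultures labelled WT held the oligodendrocyte gene Mbp at 525 CPM beside the astrocyte gene Gfap at 4008 CPM, so values there describe mixed cultures.

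In callosum, 7 of the 10 cathepsin genes rose in libraries labelled Qk-KO and none fell. Ctss, Ctsz, Ctsh and Ctsd rose between 2.29-fold and 2.73-fold, Ctsc rose 1.78-fold, and Ctsa and Ctsb rose 1.39-fold and 1.38-fold. Over all 19935 tested genes, 2.09% were called higher and 0.231% lower. At an unadjusted p under 0.05, 8 of the 10 were higher and 0 lower by the deposited DESeq2 test. The share of all genes at that unadjusted threshold was not counted for this test. The median log2 change was 0.71 over the 10 genes and -0.01 over all tested genes. Summed over the 10 genes, fitted CPM went from 1079 in WT to 1953 in Qk-KO. In bulk tissue, a change in the number of cells of a type and a change in RNA per cell cannot be told apart.

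Ctsd encodes cathepsin D, the main aspartic protease of the lysosome. Its fitted counts were 9192, 10327, 6687 and 8097 in WT replicates 1 to 4, and 18790, 16505, 15733 and 13059 in Qk-KO replicates 1 to 4. The groups did not overlap, but the differences within a genotype are differences in depth only. On fitted means, overlap follows from the fold and the depths and says nothing about replicates. Fitted counts of Ctsb, also called higher, did overlap, from 6839 to 10562 in WT and from 8028 to 11551 in Qk-KO. In CPM, Ctsd went from 373 to 868, a log2 change of 1.19 ± 0.14 (SE; adjusted p = 6.44e-15, authors' deposited table), and by its p-value it ranked 29 among the tested genes. Ctss encodes cathepsin S, which stays active at neutral pH and trims the invariant chain of MHC class II. Its fitted counts were 1330, 1495, 967.8 and 1172 in WT and 3244, 2850, 2716 and 2255 in Qk-KO. Every Qk-KO value lay above every WT value, again on fitted means without replicate spread. Ctss went from 54.0 to 149.8 CPM, a log2 change of 1.45 ± 0.17 (adjusted p = 1.73e-14, authors' deposited table).

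**Figure D1:**
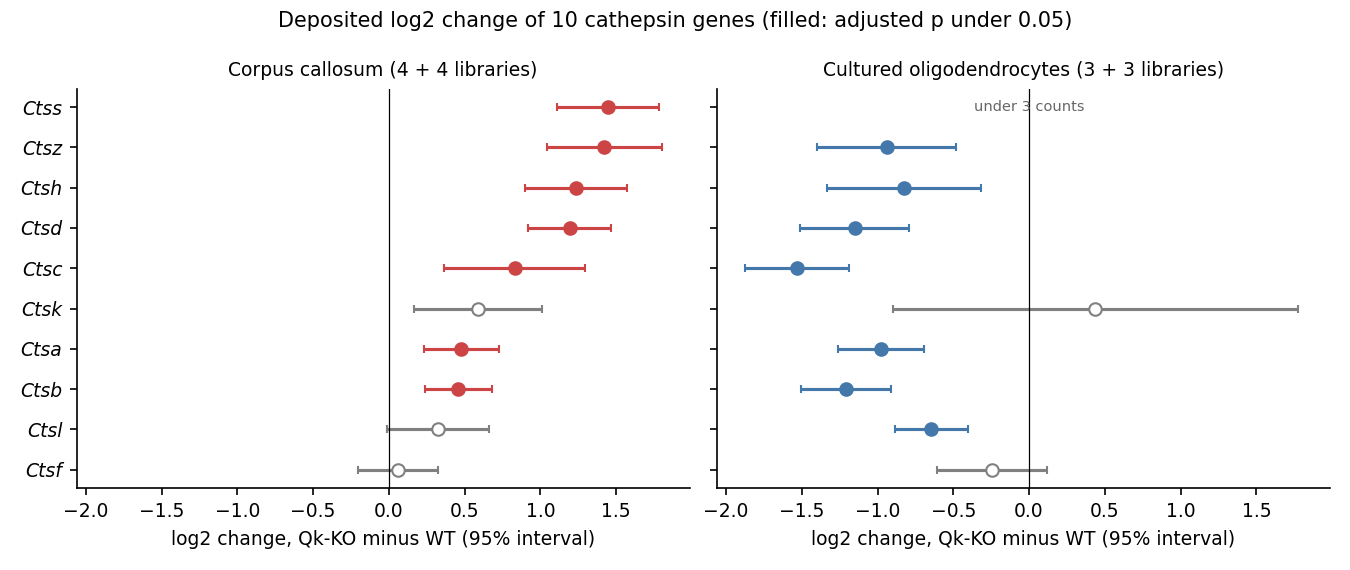
Deposited log2 change (x axis, Qk-KO minus WT) of each cathepsin gene, with its 95% interval, in callosum (left, 4 libraries per genotype) and in culture (right, 3 per genotype). Filled points passed an adjusted p of 0.05, red higher and blue lower. The 7 filled points in callosum lie right of 0 and the 7 in culture lie left of 0; Ctss is not drawn in culture, where it had under 3 counts per library.

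The exopeptidase genes Ctsz and Ctsh rose by amounts close to that of Ctss. Ctsz, a carboxypeptidase also called cathepsin X, went from 29.5 to 80.5 CPM (log2 1.42 ± 0.19, adjusted p = 5.69e-11, authors' deposited table). Ctsh, an aminopeptidase, went from 8.93 to 21.4 CPM (log2 1.24 ± 0.17, adjusted p = 1.81e-10, authors' deposited table). Ctsc encodes dipeptidyl peptidase I, which activates the serine proteases of leukocyte granules. Its level went from 8.75 to 15.8 CPM, with a log2 change of 0.83 ± 0.24 (adjusted p = 0.0235, authors' deposited table).

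Ctsb and Ctsa, found in most cell types, rose by smaller amounts. Ctsb, cathepsin B, an endopeptidase that also removes dipeptides, went from 382 to 533 CPM (log2 0.46 ± 0.11, adjusted p = 0.00371, authors' deposited table). Ctsa, the carboxypeptidase that protects neuraminidase and beta-galactosidase in the lysosome, went from 76.5 to 108 CPM (log2 0.48 ± 0.13, adjusted p = 0.00844, authors' deposited table). Ctsl, Ctsk and Ctsf did not pass. Ctsl, the endopeptidase cathepsin L, had a log2 change of 0.33 ± 0.17 (95% interval -0.01 to 0.66, adjusted p = 0.649, authors' deposited table). Ctsk, a collagen-degrading enzyme best known from osteoclasts, had 0.59 ± 0.22 (0.16 to 1.01, adjusted p = 0.192, authors' deposited table). Ctsf, cathepsin F, had 0.06 ± 0.13 (-0.20 to 0.32, adjusted p = 1.00, authors' deposited table), and its upper bound lay below the change of every member that passed.

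Ordered by log2 change, the members formed a series in which no neighbours had separate 95% intervals. The ends were apart: the intervals of Ctss, Ctsz, Ctsh and Ctsd, with lower bounds from 0.90 to 1.11, did not overlap those of Ctsa, Ctsb, Ctsl and Ctsf, with upper bounds from 0.32 to 0.72. All come from the same 8 libraries. Ctsk and Ctss lie side by side on chromosome 3 in the same orientation, 17423 bases apart in the annotation (95499256 to 95509362 and 95526786 to 95556403, plus strand, GRCm38). The upper bound of Ctsk, 1.01, was below the lower bound of Ctss, 1.11.

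Levels were compared between genes per kb of annotated exon. The length is the union of all annotated exons of a gene, from 1358 bases for Ctss to 6489 for Ctsl. The order and the shares below therefore depend on the annotation as well. In WT callosum Ctsd stood highest at 159 CPM per kb, followed by Ctsb at 63.1, Ctss at 39.8, Ctsz at 20.5, Ctsa at 16.2, Ctsl at 13.5 and Ctsf at 10.9 CPM per kb. Ctsk (2.41), Ctsh (1.98) and Ctsc (1.51 CPM per kb) were low. The tables give no error for a single level, so close neighbours in this order cannot be separated. In Qk-KO callosum, Ctss at 110 CPM per kb stood above Ctsb at 88.2. The Ctsb share of the summed per-kb level was 19.2% in WT and 12.8% in Qk-KO, that of Ctss 12.1% and 16.1%, and that of Ctsd 48.3% and 53.8%.

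**Figure D2:**
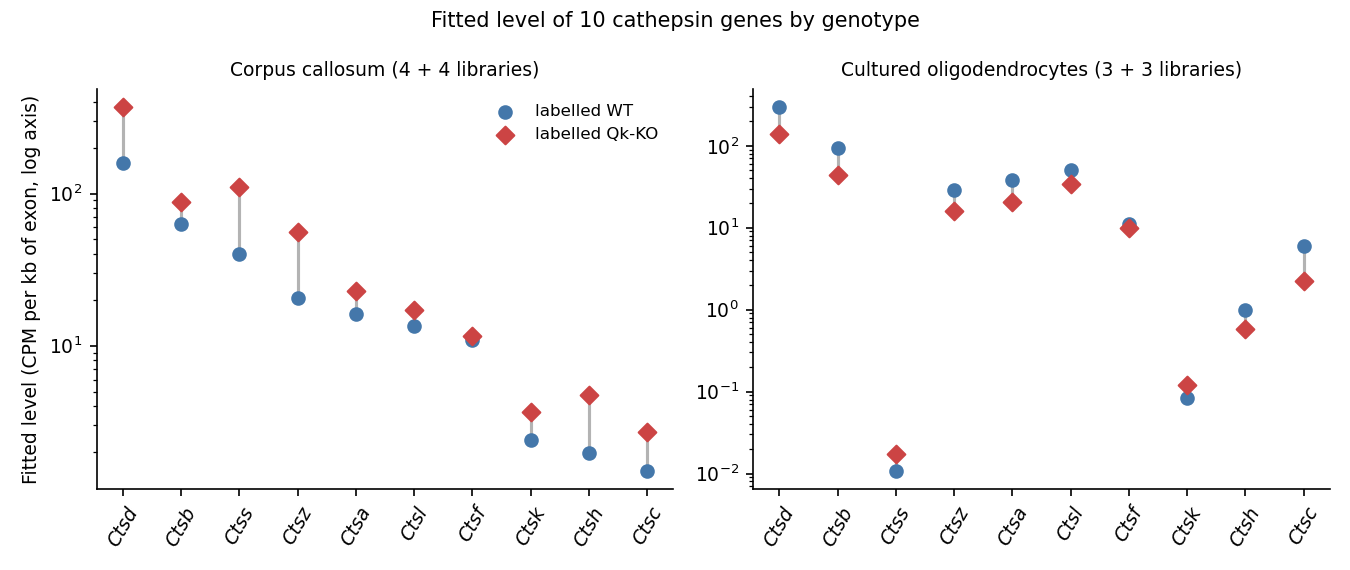
Fitted level of each cathepsin gene in CPM per kb of exon (y axis, log scale, its range differing between panels) for libraries labelled WT (blue circles) and Qk-KO (red diamonds) in callosum (left) and culture (right). Each point is the fitted mean of a genotype and has no error bar, because the tables hold none. Ctsd is highest in both panels, and Ctss comes after Ctsd and Ctsb in WT callosum and is lowest in culture.

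In culture, the direction was the opposite. Of the 8 cathepsin genes tested there, 7 fell in libraries labelled Qk-KO and none rose, against 15.2% of all 17503 tested genes called lower and 13.3% called higher. At an unadjusted p under 0.05, 7 were lower and 0 higher by the deposited DESeq2 test. The share of all genes at that unadjusted threshold was not counted here either. The median log2 change was -0.96 over the 8 genes and 0.01 over all tested genes. Summed fitted CPM of the 10 genes went from 1917 in WT to 1001 in Qk-KO.

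Ctsd fitted counts in culture were 33998, 26639 and 29000 in WT replicates 1 to 3 and 16021, 14767 and 13748 in Qk-KO replicates 1 to 3. WT lay above Qk-KO throughout, on fitted means without replicate spread. In CPM, Ctsd went from 695 to 330, a log2 change of -1.15 ± 0.18 (SE; adjusted p = 8.99e-09, authors' deposited table). Ctsb, at 576 CPM in WT and 263 in Qk-KO, had -1.21 ± 0.15 (adjusted p = 7.64e-14, authors' deposited table). The largest fall in log2 terms among the members was that of Ctsc, from 35.2 to 12.9 CPM (2.89-fold, log2 -1.53 ± 0.18, adjusted p = 2.33e-16, authors' deposited table).

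Ctsa and Ctsz, both carboxypeptidases, changed by -0.98 ± 0.14 (adjusted p = 4.66e-10) and -0.94 ± 0.23 (adjusted p = 4.45e-04) in the authors' deposited table. Ctsh, at 4.44 CPM in WT and 2.64 in Qk-KO, changed by -0.83 ± 0.26 (adjusted p = 0.00748, authors' deposited table). Ctsl, which had not passed in callosum, went from 329 to 222 CPM and had a log2 change of -0.64 ± 0.12 (adjusted p = 2.13e-06, authors' deposited table). Ctsf did not pass here either, with a log2 change of -0.25 ± 0.19 (95% interval -0.61 to 0.12, adjusted p = 0.354, authors' deposited table). No neighbouring members had separate 95% intervals in this order either.

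Ctss and Ctsk were almost missing from the cultures. Fitted counts of Ctss were 0.716, 0.561 and 0.611 in WT and 1.13, 1.04 and 0.969 in Qk-KO, so both groups lay under 3 counts per library and no fold is given. Ctsk had a mean of 6.73 normalized counts, below the 8.52 from which the table carries an adjusted p, and its log2 change of 0.44 ± 0.68 (authors' deposited table) was not tested. Ctsd, Ctsb and Ctsl stood highest per length in WT culture, at 296, 95.2 and 50.7 CPM per kb.

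The difference between tissue and culture was tested with a two-sided z test on both deposited changes, adjusted over the 16601 genes tested in both tables. The tables share no library. Of the 8 cathepsin genes tested in both, 7 had a higher change in callosum than in culture and none a lower one, against 11.7% and 9.84% of all genes. Ctsz differed by 2.36 ± 0.30 log2 units (SE; adjusted p = 4.84e-13, z test), Ctsc by 2.36 ± 0.30 (adjusted p = 1.13e-13, z test) and Ctsd by 2.34 ± 0.23 (adjusted p = 7.42e-22, z test). The difference was 2.06 ± 0.31 for Ctsh, 1.67 ± 0.19 for Ctsb, 1.45 ± 0.19 for Ctsa and 0.97 ± 0.21 for Ctsl (adjusted p = 7.09e-05 for Ctsl, z test). For Ctsf it was 0.31 ± 0.23 (95% interval -0.14 to 0.75, adjusted p = 0.385, z test). Called higher in callosum and lower in culture were 6 of these 8 genes, Ctsa, Ctsb, Ctsc, Ctsd, Ctsh and Ctsz, against 84 of the 16601 genes, or 0.506%. The members were proposed with these results known, so the count describes them and is no independent evidence.

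**Figure D3:**
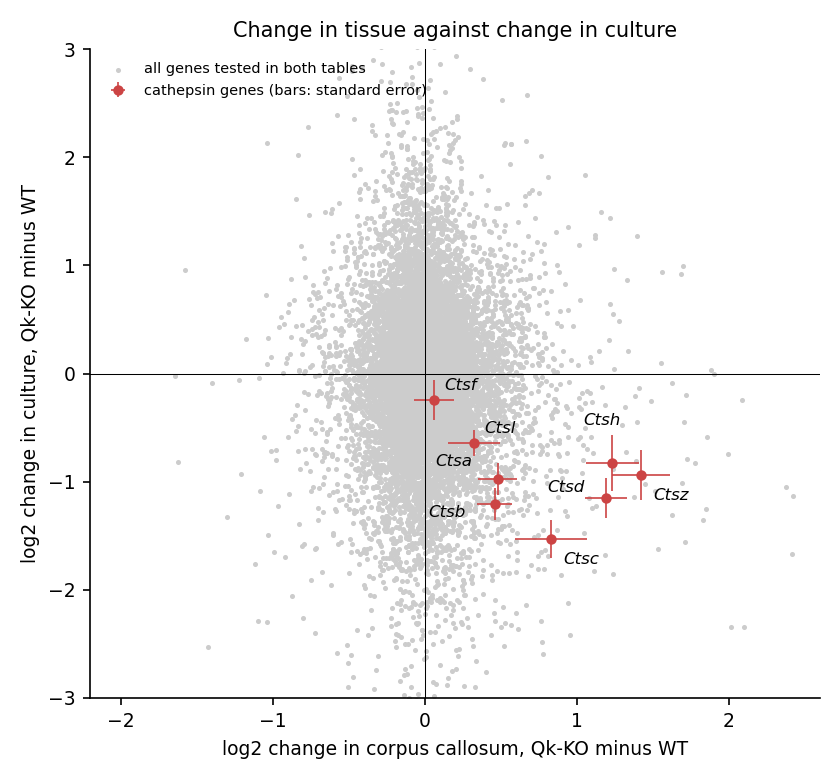
Log2 change (Qk-KO minus WT) in callosum (x axis) against culture (y axis). Grey points are the 16601 genes tested in both tables, of which 65 lie outside the axes, and red points are the 8 cathepsin genes tested in both, with standard errors as bars. Ctsf lies near the origin and the other 7 lie below and to the right of it.

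Genes whose pair of changes lay nearest to that of a member were listed by Euclidean distance among 12325 genes with a mean of at least 50 normalized counts in both tables. They rest on 2 changes only. Nearest to Ctsc were Tnfrsf1a, a receptor of tumour necrosis factor (log2 0.83 in callosum and -1.53 in culture), and the lipid carrier Apoe (0.74 and -1.49). Pdlim2 (1.24 and -0.88) was among the nearest to Ctsz and was nearest to Ctsh, with Rab7b (1.32 and -0.73), a late endosome GTPase, next. S100a10 and the lipid droplet gene Plin2 were nearest to Ctsa, Irgm1 and Gamt to Ctsb, and Anxa3 and Adamtsl3 to Ctsd. The callosum errors of these genes ranged from 0.14 to 0.29 and exceeded the distance in each pair.

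Promoters are shown for 4 members to set beside these values: Ctsd, the most abundant member, Ctsf, which did not pass in either table, and Ctsc and Ctss, which share a purine-rich word of the kind bound by PU.1, the myeloid ETS factor. The sequences are RefSeq's on GRCm38.p6, from 250 bases before the start of the gene to 10 after it, and capitals mark the motif found. Ctsd and Ctsf are marked at CACGTG, the E-box core of the element bound by TFEB and other lysosomal regulators, and Ctsc and Ctss at ACTTCCTC, the reverse complement of GAGGAAGT. Positions are chr7:142387818-142388077 (minus strand) for Ctsd, chr19:4854915-4855174 (plus) for Ctsf, chr7:88277835-88278094 (plus) for Ctsc and chr3:95526536-95526795 (plus) for Ctss.
Ctsd promoter: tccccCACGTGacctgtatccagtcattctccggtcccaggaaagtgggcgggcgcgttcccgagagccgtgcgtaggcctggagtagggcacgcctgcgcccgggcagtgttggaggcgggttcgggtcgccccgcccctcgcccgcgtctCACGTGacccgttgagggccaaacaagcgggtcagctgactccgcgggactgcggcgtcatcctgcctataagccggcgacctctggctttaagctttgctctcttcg
Ctsf promoter: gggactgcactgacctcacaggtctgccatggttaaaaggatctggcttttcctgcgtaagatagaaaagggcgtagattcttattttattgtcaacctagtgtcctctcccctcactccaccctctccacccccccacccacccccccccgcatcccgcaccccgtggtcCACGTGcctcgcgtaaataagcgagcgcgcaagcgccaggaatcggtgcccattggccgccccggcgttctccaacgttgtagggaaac
Ctsc promoter: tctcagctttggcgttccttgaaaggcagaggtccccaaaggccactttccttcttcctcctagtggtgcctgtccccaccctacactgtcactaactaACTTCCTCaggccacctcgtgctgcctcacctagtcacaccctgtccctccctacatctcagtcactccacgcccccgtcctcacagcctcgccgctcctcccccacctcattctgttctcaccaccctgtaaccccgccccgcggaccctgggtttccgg
Ctss promoter: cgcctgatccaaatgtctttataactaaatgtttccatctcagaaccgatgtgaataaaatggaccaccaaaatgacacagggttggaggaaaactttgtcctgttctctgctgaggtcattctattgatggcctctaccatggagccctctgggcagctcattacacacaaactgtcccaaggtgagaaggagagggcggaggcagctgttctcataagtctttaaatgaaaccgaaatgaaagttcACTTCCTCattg
Ctsd holds CACGTG at -245 and -98 from its start, and Ctsf at -79. The word ACTTCCTC stands at -151 in Ctsc and at -2 in Ctss, across the start itself. Windows of 300 bases (250 before and 50 after the start) were searched on both strands for 8 of the 10 members (9 promoters). CACGTG was found in 4 members, Ctsa, Ctsd, Ctsf and Ctsl, and in 7.15% of all 32851 promoters. GAGGAAGT or its complement was found in Ctsc and Ctss and in 3.20% of all promoters. The longer CLEAR palindrome, which contains CACGTG, was found in no member and in 0.326% of promoters. A match is a description of letters. Of the 4 members with the E-box, Ctsa and Ctsd passed in callosum and in culture, Ctsl in culture alone and Ctsf in neither. No promoter was at hand for Ctsb and Ctsh. A link between these motifs and the changes was not tested.

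A list of cathepsin inhibitor genes, drawn widely to hold serpins as well as cystatins, moved in part. Of 10 tested inhibitor genes in callosum, 2 rose and 1 fell, with a list median of 0.43. Cst7, cystatin F, an inhibitor made by immune cells that acts on cathepsin C among others, rose from 0.623 to 10.6 CPM (log2 4.06 ± 0.31, adjusted p = 1.69e-35, authors' deposited table). Serpina3n rose by 2.38 ± 0.14 (adjusted p = 1.30e-56) and Serpinb1a, an inhibitor of neutrophil serine proteases, fell by 1.30 ± 0.18 (adjusted p = 6.33e-11) in the authors' deposited table. Cst3, the abundant secreted cystatin C, had 0.29 ± 0.15 (adjusted p = 0.668, authors' deposited table). In culture, 4 of 8 tested inhibitor genes fell and none rose. Cst3 went from 3335 to 1999 CPM and fell by 0.82 ± 0.15 (adjusted p = 8.59e-07, authors' deposited table), and Cst7 was under 3 normalized counts in both genotypes.

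A list of 17 genes was drawn around the sorting and maturation of cathepsins. It also holds the neuraminidase and beta-galactosidase genes Neu1 and Glb1, counted among the hydrolases below too, and the regulators Tfeb, Tfe3 and Mitf. Of the 17 genes, 2 rose in callosum and none fell (median 0.04). These were Grn, progranulin (log2 1.07 ± 0.18, adjusted p = 4.30e-07), and Lgmn, the asparaginyl endopeptidase that cleaves several cathepsins to their mature form (0.52 ± 0.09, adjusted p = 2.48e-06), in the authors' deposited table. Psap, the saposin precursor, was at 0.03 ± 0.09 (adjusted p = 1.00, authors' deposited table). In culture, 9 of 17 fell and none rose (median -0.42). Cln3, a lysosomal membrane protein, fell by 1.76 ± 0.15 and Sort1, sortilin, by 0.89 ± 0.11 in the authors' deposited table. Psap fell by 0.84 ± 0.18 and Grn by 0.70 ± 0.16, while Lgmn did not pass (-0.26 ± 0.18, adjusted p = 0.280, authors' deposited table).

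Other lysosomal enzymes gave calls in 1 direction per table, upward in callosum and downward in culture. Among 25 non-protease hydrolases, 4 rose and none fell in callosum (median 0.16), among them Gusb (0.94 ± 0.13), Man2b1 (0.83 ± 0.12) and Hexa (0.58 ± 0.13), in the authors' deposited table. In culture 16 of the 25 fell and none rose (median -0.55), led by the galactolipid hydrolase gene Galc (-2.16 ± 0.16), the ceramidase gene Asah1 (-1.38 ± 0.14), Hexa (-1.14 ± 0.15) and Fuca1 (-0.71 ± 0.12), in the authors' deposited table. Of the list of other lysosomal proteases, which also holds the thioesterase gene Ppt1, 2 of 8 rose in callosum (Lgmn and the carboxypeptidase gene Prcp, 0.55 ± 0.16). In culture 5 of 9 fell, Ppt1 among them, with Tpp1, tripeptidyl peptidase, at -1.19 ± 0.15, in the authors' deposited tables. Ctso, a cysteine cathepsin outside the 10, was at 0.14 ± 0.12 in callosum (adjusted p = 0.999) and fell by 1.90 ± 0.16 in culture (adjusted p = 6.32e-31), in the authors' deposited tables.

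MHC class II genes, whose invariant chain is the known substrate of cathepsin S, were at low levels. In callosum 3 of 7 rose: Cd74, the invariant chain, went from 3.52 to 13.6 CPM (log2 1.93 ± 0.34, adjusted p = 2.64e-06), H2-Aa rose by 1.39 ± 0.34 and H2-Ab1 by 1.40 ± 0.39, in the authors' deposited table. H2-DMa had 0.55 ± 0.18 (adjusted p = 0.0688, authors' deposited table). In culture 3 of the 7 could be tested, and 1 fell, the class II regulator Ciita (-1.21 ± 0.46, adjusted p = 0.0353, authors' deposited table).

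Most markers of microglia rose in callosum as well. Of 20 microglia markers (Ctss not among them), 14 rose and none fell, with a median of 1.01, and their summed level went from 445 to 953 CPM. Csf1r, the growth factor receptor of microglia and the most abundant of them, rose by 0.87 ± 0.16, and Ptprc (CD45) by 1.77 ± 0.14 in the authors' deposited table. All 16 markers of activated microglia rose (median 1.70), their summed level going from 1148 to 2064 CPM, of which Apoe made up 1001 and 1704. Of 7 tested border macrophage and monocyte markers 1 rose, Cd14 (1.83 ± 0.25), and the mannose receptor gene Mrc1 was at 0.13 ± 0.26 in the authors' deposited table. Among other cell types, 2 of 12 astrocyte, 4 of 12 oligodendrocyte and 1 of 8 precursor markers rose, those with the smallest p being Gfap (2.06 ± 0.19), Mog (1.12 ± 0.15) and Bcas1 (0.90 ± 0.23) in the authors' deposited table. None of 10 neuron, 10 endothelial and mural and 8 fibroblast markers was called by the deposited DESeq2 test. The part of microglial RNA in the cathepsin rise was not tested.

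**Figure D4:**
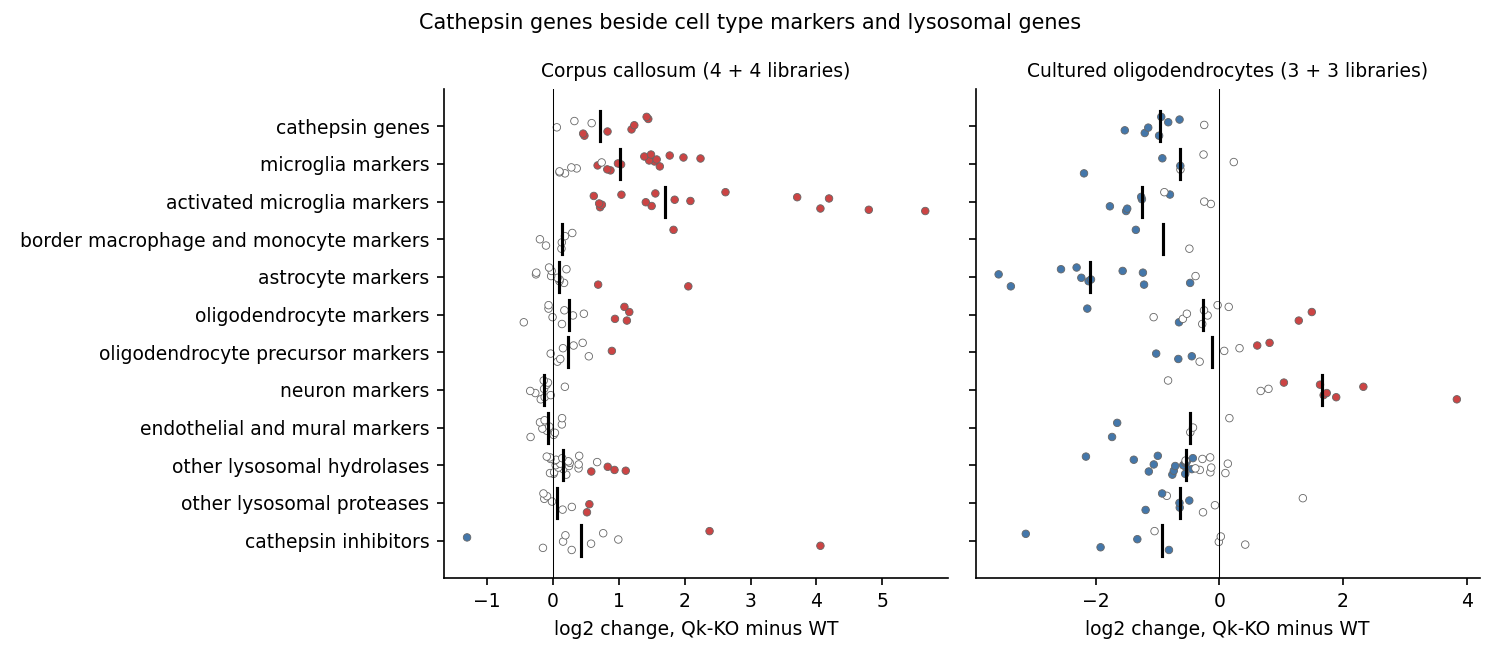
Log2 change (x axis, Qk-KO minus WT) of each tested gene in the cathepsin group, in cell type marker lists and in lysosomal lists, for callosum (left) and culture (right). Red points were called higher, blue lower and white points did not pass, and black bars are list medians. The cathepsin genes lie right of 0 with both microglia lists in callosum, and left of 0 in culture, as do all tested astrocyte and activated microglia markers and 5 of the 6 tested microglia markers.

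In culture most microglia markers of the list had few or no reads. No reads were counted for 6 of the 20, C1qa, C1qb, C1qc, Fcrls, Itgam and Trem2, and 12 were under 3 normalized counts in both genotypes. The summed level of the list was 39.1 CPM in WT and 25.8 in Qk-KO, of which Sall1, also a gene of neural progenitors, made up 33.3 and 22.7. Of the 6 markers with enough counts to be tested, 3 fell and none rose (median -0.63), with P2ry12 going from 2.17 to 0.502 CPM (log2 -2.19 ± 0.41, adjusted p = 1.45e-06, authors' deposited table). Of the activated microglia markers, 6 of the 9 tested fell and none rose (median -1.25). Their summed level went from 6613 to 2513 CPM, of which Apoe, also made by astrocytes, accounted for 6256 and 2349, and Axl changed by -1.77 ± 0.17 in the authors' deposited table. Ccl3, Ccl4 and Clec7a of that list had no reads. Ctss, given above, was under 3 counts per library in culture. Of 12 astrocyte markers 11 fell and none rose (median -2.10), the summed level going from 14860 to 4401 CPM. Gfap changed by -3.37 ± 0.29 and Mlc1 by -2.56 ± 0.13 in the authors' deposited table. Of 12 oligodendrocyte markers 2 rose and 2 fell, and of 10 neuron markers 7 rose and none fell (median 1.66). The part of any of these lists in the fall of the cathepsins was not tested.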

How the data were processed

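RNA-seq of 8 callosum and 6 culture libraries was used as 2 tables. Per the submitters' processing notes, the authors used FastQC, TopHat2 2.0.14, featureCounts and DESeq2 on mm10; the sources used here give no annotation, strand setting or model design, so reads of overlapping opposite-strand genes cannot be told apart. The library columns the authors deposited are log2 values of fitted means plus 1: libraries of a genotype differ by 1 constant factor at every gene within 1e-09, and genotypes by the deposited change plus a constant. The planned count or limma tests could therefore not be run, nor could outlying libraries be sought. The deposited mean is a normalized signal (counts over size factors), the deposited score is the change over its SE, and the deposited p-value columns hold the Wald p and its Benjamini-Hochberg value, which recomputing returned. The authors' direction, WT over Qk-KO, was turned. Genes under a mean of 8.08 (callosum) or 8.52 (culture) carry no adjusted p.

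Fitted CPM, 95% intervals, exon lengths (GENCODE vM21, GRCm38; 46488 of 46983 IDs matched), the z test and its adjustment were computed with Python 3.11.15, pandas 2.3.3 and scipy 1.17.1, and the z test was tested on simulated data. The tables were normalized separately, so levels are not compared between them. A symbol held by 2 IDs (Itgam) was read from the more abundant one. Members, lists and tests were chosen with earlier results of these data known. Named genes are all members, Qk, up to 4 called genes of smallest p and the most abundant gene that did not pass in each pathway list, the top called and most abundant gene of each marker list, and the 2 nearest genes of each member called in callosum and tested in both tables. Some genes that this rule takes are not reported here. Alternatives were other thresholds, filters, reference distributions and scalings. Promoters are from RefSeq (GRCm38.p6).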

Additional observations from a re-analysis of the deposited data

Results flagged for a closer look

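The change between genotypes differed between callosum and culture, by the z test on the difference itself, for 7 cathepsin genes. In log2 units, callosum minus culture, the differences were 1.45 for Ctsa, 1.67 for Ctsb, 2.36 for Ctsc, 2.34 for Ctsd, 2.06 for Ctsh, 0.97 for Ctsl and 2.36 for Ctsz. For Ctsl the change passed in culture alone, so it is listed for the difference and not for opposite calls.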

How the results depend on the processing

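The 7 calls in callosum and the 7 in culture came to 6 or 7 under thresholds of 0.01 and 0.1, no filter on low values, a mean of at least 50 and scaling by library size; the 6 is callosum at 0.01, where Ctsc was not called. The 7 differences between them stayed at 7 under a threshold of 0.01, a mean of at least 50, scaling by library size and centring on the median. With a Student reference (6 and 4 degrees of freedom) in place of the normal one, 0 members passed in callosum and 0 in culture, with adjusted p from 0.0920 to 0.653 and from 0.0610 to 0.173 for the genes otherwise called; at an unadjusted p under 0.05 it gave 8 and 7. Over all genes it left 8 of 463 calls in callosum and 0 of 5003 in culture. At an unadjusted p under 0.05 by the Student reference, 900 genes passed in callosum and 4187 in culture. The tables held 19935 and 17503 tested genes. The differences between callosum and culture rest on the normal reference and were not tried with the Student one. Of 158 values for single members under an alternative, 143 were counted as the same, 15 lost their call and 0 reversed. The 143 include genes called under neither setting. They also include 18 values on log2 of CPM plus 0.5, which carry no test and only kept their direction. Library size scaling moved all changes by 0.02 in callosum and 0.08 in culture, and the culture split from 2336 higher and 2667 lower to 3054 and 2296. No paired analysis was possible because the library columns are fitted means without replicate spread; the replicate block, leaving out single libraries and the edgeR test were not run for that reason. In culture Ctss and Ctsk had too few counts for an adjusted p.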

Other observations

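Ctse, an aspartic cathepsin of immune and epithelial cells that is not among the 10 genes, had fitted means of 2.38 normalized counts in WT and 9.89 in Qk-KO callosum. Its log2 change was 2.05 ± 0.54 (95% interval 0.99 to 3.11; unadjusted p = 1.47e-04, authors' deposited table). It lay under the mean at which the table carries an adjusted p, and adjusting over every gene with a p-value gave 0.0151 for the deposited DESeq2 p. Ctse had no reads in culture. It was singled out after its values were seen.

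Some members share annotated exon sequence with other genes, named here after their values were seen. Ctsd shares 808 bases (34.4% of its exon length) with Gm49369 on the same strand. Ctsl shares 1742 bases (26.8%) with Gm47123 on the opposite strand. The deposited tables held no row under the ID of either partner, so no value is given for them. The next overlaps are with genes on the opposite strand. Ctsa shares 495 bases with Pltp, a phospholipid transfer protein gene, which changed by -0.28 ± 0.18 in callosum and fell by 3.11 ± 0.24 in culture (authors' deposited tables). Ctsb shares 774 bases with Fdft1, squalene synthase, at -0.18 ± 0.11 and -0.31 ± 0.18 (authors' deposited tables). In callosum neither Pltp nor Fdft1 passed (adjusted p = 0.866 and 0.810). In culture Pltp fell, as did Ctsa, and Fdft1 did not pass (adjusted p = 0.213). The part of shared reads in the changes of these members was not tested.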
